A study of Mus musculus with 8 samples.

Results

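The incretin, fatty acid and inhibitory islet receptors are a group of 10 G-protein-coupled receptors through which hormones, lipids and nerve transmitters act on insulin-secreting cells: Glp1r, Gipr, Gcgr, Ffar1, Gpr119, Adra2a, Sstr3, Sstr5, Chrm3 and Galr1. They were taken by gene symbol from a table of 55536 genes, and each of the 10 symbols matched 1 row. RNA was measured in MIN6, an insulinoma cell line of mouse β cells labelled as wild type, 48 h after transfection with Lipofectamine 3000, a lipid-based carrier of DNA. Control cells (4 libraries) had the empty plasmid pcDNA 3, and Klf4-transfected cells (4 libraries) had pGloMyc-Klf4, which drives expression of the zinc-finger transcription factor Klf4. Going by the plasmid names the backbones differ, so an effect of the backbone and one of Klf4 cannot be told apart. Replicates 1 and 2 of each group carry the label batch 1, and replicates 3 and 4 the label batch 2. The series describes the replicates as biological, and nothing further says how the cultures were separated. The extraction text speaks of islets, whereas every sample is named as MIN6.

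As background, receptors of this kind act through heterotrimeric G proteins. In β cells, receptors coupled to Gs raise cyclic AMP and strengthen glucose-stimulated insulin secretion, those coupled to Gq act through phospholipase C and calcium, and those coupled to Gi lower cyclic AMP, open G-protein-gated potassium channels and restrain secretion. Glucagon-like peptide 1, the incretin from the gut, and acetylcholine from nerves are stimulators, while adrenaline, somatostatin and galanin are inhibitors.

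Library totals ran from 45417853 to 52731176 counts, so 1 count was worth 0.0190 to 0.0220 CPM (reads per gene relative to library size, with TMM factors that correct for composition). Klf4 itself rose from 40.1 ± 3.11 to 5037 ± 567 CPM (SD, n = 4), a 125.7-fold difference, with no overlap of the groups. Counts per gene do not separate transfected from endogenous Klf4. The β-cell markers were present, with a summed level of 25316 to 32088 CPM in control and 23642 to 32342 CPM in Klf4-transfected libraries. By edgeR (adjusted p below 0.05) 5 of 10 of them fell, at log2 fold changes of -0.22 to -0.07, and 0 rose. Over all tested genes 15.5% fell and 21.1% rose by that test. Ins1 and Ins2 were not among the 5. Markers of other cells moved at low levels. The 3 ductal markers summed to 0.185 to 0.331 against 2.74 to 4.38 CPM, the 4 fibroblast markers to 2.65 to 3.86 against 5.80 to 7.16 CPM, and the 3 endothelial markers to 3.82 to 4.15 against 4.49 to 4.95 CPM. Of the 2 PP-cell markers the sum went from 0 to 0.276 in control to 0.684 to 1.71 CPM. Single genes carried much of these sums. In Klf4-transfected libraries Krt19 averaged 3.24 CPM, while Sox9 (0.206) and Cftr (0.0783) were too low to be tested. Pyy went from 0.00507 to 1.05 CPM, and Ppy, too low to be tested, from 0.0895 to 0.118 CPM. The fibroblast markers Col1a1 and Pdgfra rose, and Col1a2 was not past 0.05 (edgeR adjusted p = 0.734). The endothelial marker Cdh5 rose from 0 to 0.403 CPM, and Pecam1 was not past 0.05 (edgeR adjusted p = 0.351). The summed α-cell (6 markers), δ-cell (3), acinar (4) and immune (3) levels overlapped between the groups, at 589 to 710 against 603 to 704 CPM, 1.46 to 2.11 against 1.82 to 2.39 CPM, 1.42 to 3.91 against 1.68 to 3.30 CPM, and 5.93 to 6.55 against 5.91 to 7.39 CPM. No marker was at 0 in all libraries, and the part of these markers in the receptor results was not tested. In bulk RNA, fewer cells of a type and less RNA per cell cannot be told apart.

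Of the 10 receptors, 9 had enough counts to be tested, and 4 of those 9 (44.4%) were called by edgeR's quasi-likelihood test with a batch term (adjusted p below 0.05). The background was 36.6% of all 18266 tested genes, so the share called was near it. Gcgr, Sstr5 and Ffar1 rose and Adra2a fell, against backgrounds of 21.1% of genes called higher and 15.5% called lower. Gcgr reached the filter only through its Klf4-transfected libraries, and without it 3 of 8 (37.5%) were called. Gpr119 was below the filter. Of the 9, 7 moved by less than 0.12 on the log2 scale, and the median log2 fold change was -0.02 (-0.03 without Gcgr), beside -0.01 over all tested genes. In 2 receptors, Gcgr and Sstr5, the groups of 4 did not overlap (26.1% of all tested genes). In 4 (also Ffar1 and Adra2a) they did not overlap within either batch and differed in the same direction in both (39.5% of all tested genes). For Gcgr this followed from how it passed the filter, with 0 control and 4 Klf4-transfected libraries at the minimum. Of the 8 without it, Sstr5 alone remains in the first count, and Sstr5, Ffar1 and Adra2a in the second. In batch 1 alone 3 receptors were called (24.4% of genes), and in batch 2 alone 3 (29.8%). Over all tested genes 9.09% were called with a log2 fold change of at least 0.9, as Gcgr and Sstr5 were, and 5.18% with at least 2, as Gcgr was. Gcgr's place in these shares has the same limit, since only its higher group brought it into the test. Calls with a change under 0.12 in size, as for Ffar1 and Adra2a, made up 5.29% of tested genes.

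**Figure D1:**
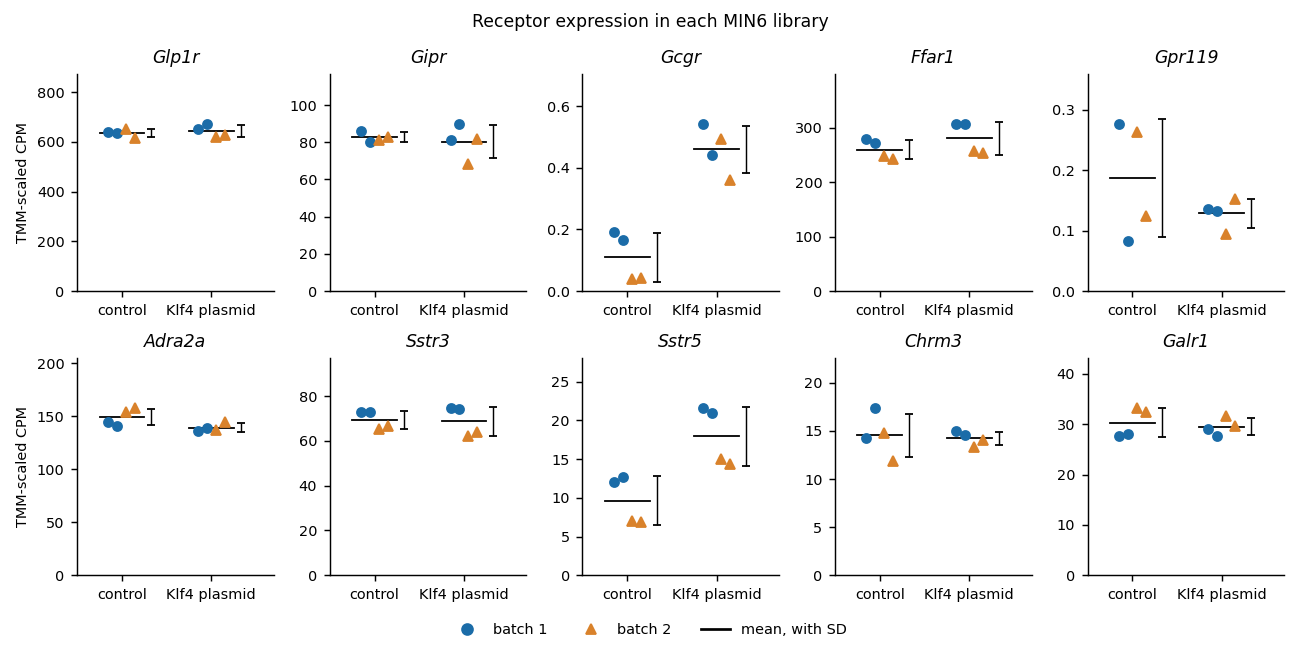
TMM-scaled CPM of the 10 receptor genes in each of the 8 libraries, 1 panel per gene, with points for single libraries, batches marked apart, and the group mean with SD. The Klf4-transfected points lie wholly above the control points for Gcgr and Sstr5, and the groups overlap in the other panels.

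The promoter stretches are shown for Gcgr, the receptor with the largest fold change, and Glp1r, the most abundant receptor, because Klf4 is known to bind CACCC-type and GC-rich sites. They are RefSeq sequence of build GRCm38.p6, on the plus strand of each gene, ending just before the annotated start, at chr11:120530477-120530698 for Gcgr and chr17:30901617-30901816 for Glp1r. Capitals mark the motif CACCC, searched on both strands.
Gcgr: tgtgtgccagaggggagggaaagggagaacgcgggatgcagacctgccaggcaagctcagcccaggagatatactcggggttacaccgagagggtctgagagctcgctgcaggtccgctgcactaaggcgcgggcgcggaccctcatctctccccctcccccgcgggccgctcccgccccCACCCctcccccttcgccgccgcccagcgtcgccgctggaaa
Glp1r: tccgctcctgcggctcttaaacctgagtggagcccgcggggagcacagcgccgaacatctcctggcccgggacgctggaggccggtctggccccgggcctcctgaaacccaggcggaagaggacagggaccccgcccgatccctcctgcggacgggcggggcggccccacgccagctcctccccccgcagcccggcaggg
Promoter entries were present for 7 of the 10 receptors. In the first 200 bases of each RefSeq window, CACCC stood in 3 of the 7 (Gcgr, Adra2a and Sstr3), beside 44.4% of 32851 promoter windows. The longer GGGNGTGG, some matches of which also hold CACCC, stood in 1 (Sstr3), beside 11.88%. These counts are by receptor and the shares by window. The 7 receptors had 8 windows, as Sstr3 had more than 1, and each Sstr3 window held CACCC. The Adra2a and Sstr3 windows lie within the annotated gene, at starts further along it, so they are not stretches ahead of the gene like those printed. Of the 5 receptors with bases ahead of the gene, 1 (Gcgr) held CACCC in them. A match is a description of letters only.

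Gcgr encodes the glucagon receptor, which couples to Gs. The gene (ENSMUSG00000025127) lies on the plus strand at chr11:120530699-120538986 in GRCm38, and shares no exonic base with another gene. It held 9, 8, 2 and 2 counts in control replicates 1 to 4 and 28, 20, 26 and 19 in Klf4-transfected replicates 1 to 4. Each of the Klf4-transfected libraries was above all of the control libraries, though all counts were low. The mean level went from 0.109 ± 0.0797 to 0.459 ± 0.0778 CPM (SD, n = 4), which is 4.20-fold. The summed counts, 93 against 21, gave a ratio of 4.23 with an exact 95% interval of 2.61 to 7.16. This interval and those given for Gpr119, Chrm1 and Kcnj5 cover counting error only and treat reads as independent molecules. edgeR's log2 fold change was 2.11 (SE 0.43, 95% interval 1.23 to 3.00, adjusted p = 0.000339). None of the control libraries reached the filter's minimum, so the gene was tested only because its level was higher in the Klf4-transfected libraries. With no filter on low counts the log2 fold change was 2.12 (edgeR adjusted p = 6.25e-06). It was 1.46 within batch 1 and 3.32 within batch 2. The batch 2 value rests on 4 control counts against 45, a ratio of 10.4 (3.8 to 39.9). No receptor except Gpr119 had fewer counts.

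Glp1r, the receptor of glucagon-like peptide 1, couples to Gs and is the target of incretin drugs. It lies on the plus strand at chr17:30901817-30940791. Its levels were 642, 634, 651 and 615 CPM in control replicates 1 to 4 and 654, 672, 618 and 627 CPM in Klf4-transfected replicates 1 to 4. The ranges overlapped. The log2 fold change was 0.02 (SE 0.03, 95% interval -0.04 to 0.07, edgeR adjusted p = 0.709), so a fall or rise of more than about 0.07 lay outside the interval. The sign differed between batches, at 0.05 in batch 1 and -0.01 in batch 2.

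Gipr, the receptor of the incretin GIP and likewise coupled to Gs, lies on the minus strand at chr7:19156061-19166127. It stood at 86.3, 80.3, 81.0 and 83.0 CPM in control and 81.4, 89.8, 68.4 and 81.7 CPM in Klf4-transfected libraries. Klf4-transfected replicate 3 was the lowest of the 8 and replicate 2 the highest. The log2 fold change was -0.04 (SE 0.05, 95% interval -0.14 to 0.06, edgeR adjusted p = 0.524). With an offset for GC content and exon length it was -0.24 and was called (edgeR adjusted p = 6.38e-05). That offset called 5206 of all 18266 tested genes lower, with a median of -0.05. Gpr119, a Gs-coupled lipid-amide receptor at chrX:48667979-48674478, held 13, 4, 13 and 6 control counts and 7, 6, 5 and 8 Klf4-transfected counts. That is a ratio of 0.69 (exact 95% interval 0.4 to 1.18) for 26 against 36 counts, and no difference was detectable at this depth.

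Ffar1, also called GPR40, responds to long-chain fatty acids through Gq. It lies on the minus strand at chr7:30857390-30861564. Its levels were 279, 271, 248 and 242 CPM in control replicates 1 to 4 and 307, 307, 257 and 253 CPM in Klf4-transfected replicates 1 to 4. Within each batch the Klf4-transfected libraries were higher, while between batches the groups overlapped. The mean went from 260 ± 17.9 to 281 ± 30.1 CPM (SD, n = 4), and the log2 fold change was 0.11 (SE 0.03, 95% interval 0.05 to 0.16, edgeR adjusted p = 0.00333). It was 0.15 in batch 1 (edgeR adjusted p = 0.00139) and 0.07 in batch 2 (edgeR adjusted p = 0.180). The call was also lost without the batch term (edgeR adjusted p = 0.325), without control replicate 2 (log2 fold change 0.07, edgeR adjusted p = 0.0578) and with the offset for GC content and length (0.05, edgeR adjusted p = 0.139). Of the genes called higher, 96.1% changed by more.

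Chrm3, the muscarinic acetylcholine receptor of β cells, also couples to Gq and lies on the minus strand at chr13:9875486-10360847. It stood at 14.3, 17.3, 14.7 and 11.9 CPM in control and 14.9, 14.5, 13.4 and 14.0 CPM in Klf4-transfected libraries. Every Klf4-transfected value lay within the control range. The log2 fold change was -0.03 (SE 0.07, 95% interval -0.18 to 0.12, edgeR adjusted p = 0.789), the widest interval among the 5 tested receptors that were not called.

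Of the 4 Gi-coupled receptors, Sstr5 differed most. It is a somatostatin receptor and lies on the minus strand at chr17:25489875-25497288. It stood at 12.1, 12.7, 6.97 and 6.87 CPM in control replicates 1 to 4 and 21.6, 21.0, 15 and 14.4 CPM in Klf4-transfected replicates 1 to 4. Batch 2 was lower than batch 1 in both groups (log2 difference -0.66, SE 0.07), yet the lowest Klf4-transfected library was above the highest control library. The mean went from 9.64 ± 3.15 to 18.0 ± 3.81 CPM (SD, n = 4), 1.86-fold. The log2 fold change was 0.92 (SE 0.07, 95% interval 0.78 to 1.06, edgeR adjusted p = 1.18e-10), with 0.78 in batch 1 and 1.1 in batch 2. That difference between batches did not pass the adjusted test (log2 0.30, unadjusted p = 0.0166, edgeR adjusted p = 0.32). Of the genes called higher, 42.5% changed by more. Sstr3, the other somatostatin receptor among the 10, at chr15:78537008-78544685 on the minus strand, was not called. It stood at 73.0, 72.8, 65.4 and 66.7 CPM in control and 74.6, 74.2, 62.0 and 64.0 CPM in Klf4-transfected libraries, the batches differing more than the groups. Its log2 fold change was -0.02 (SE 0.03, 95% interval -0.09 to 0.05, edgeR adjusted p = 0.710). With the offset for GC content and length it was -0.24 and called (edgeR adjusted p = 1.05e-06), where 5206 of all 18266 tested genes were called lower.

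Adra2a, the α2A-adrenergic receptor through which adrenaline inhibits insulin secretion, lies on the plus strand at chr19:54044151-54048982. It stood at 144, 141, 154 and 158 CPM in control replicates 1 to 4 and 136, 139, 138 and 145 CPM in Klf4-transfected replicates 1 to 4. The Klf4-transfected libraries were lower within each batch, but Klf4-transfected replicate 4 was above both control libraries of batch 1. The mean went from 149 ± 7.74 to 139 ± 3.95 CPM (SD, n = 4), and the log2 fold change was -0.10 (SE 0.03, 95% interval -0.16 to -0.03, edgeR adjusted p = 0.0138). It was -0.06 in batch 1 (edgeR adjusted p = 0.314) and -0.13 in batch 2 (edgeR adjusted p = 0.0175). The call was lost without the batch term (edgeR adjusted p = 0.129) and with factors from abundant genes (-0.06, edgeR adjusted p = 0.12), while the offset for GC content and length gave -0.36. Galr1, the galanin receptor, on the minus strand at chr18:82392380-82406777, stood at 27.6, 28.1, 33.2 and 32.5 CPM in control and 29.0, 27.6, 31.6 and 29.7 CPM in Klf4-transfected libraries. Batch 2 was the higher in both groups, and the groups overlapped. Its log2 fold change was -0.04 (SE 0.04, 95% interval -0.13 to 0.05, edgeR adjusted p = 0.553).

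**Figure D2:**
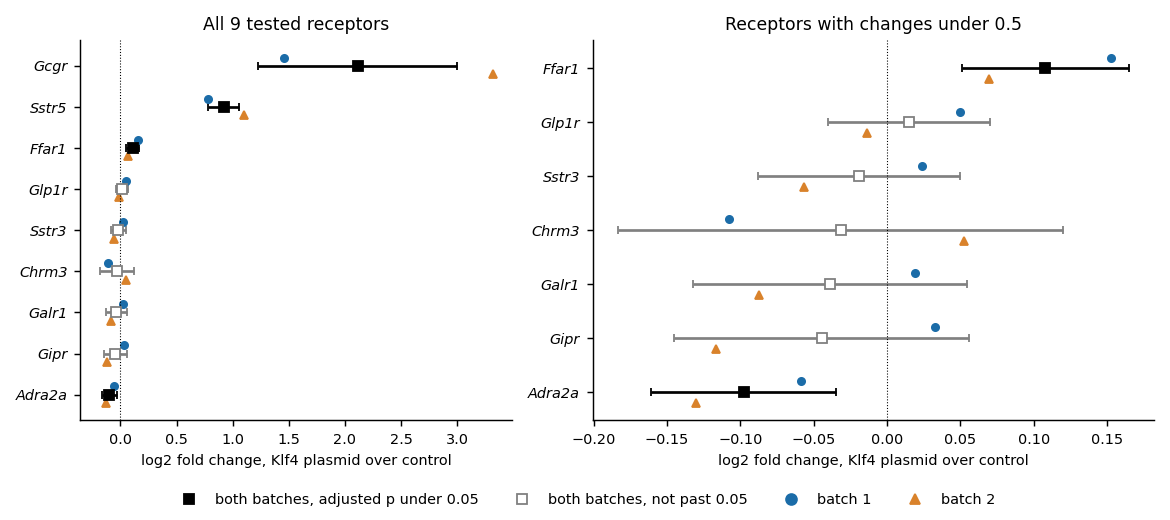
Log2 fold change, Klf4-transfected over control, of the 9 tested receptors, with 95% intervals from edgeR as lines, called receptors filled, and the values within each batch as circles and triangles (left, all 9, and right, the 7 with small changes on a wider scale). Gcgr (2.11) and Sstr5 (0.92) stand away from 0, and the other 7 lie within 0.12 of it.

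The effect of the plasmid on the receptors was not shown to differ between batches. By the edgeR interaction test 0 of 9 passed after adjustment, with 1 (Sstr5) at an unadjusted p under 0.05, and DESeq2 also gave 0 and 1. Over all genes 140 passed (0.766%), and 10.6% had an unadjusted p under 0.05.

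Levels of different receptors were compared as CPM per kilobase of exon. In control cells the order was Glp1r (109.4 ± 2.59), Ffar1 (62.2 ± 4.29), Adra2a (30.9 ± 1.6), Gipr (23.7 ± 0.767), Sstr3 (16.1 ± 0.920) and Galr1 (10.2 ± 0.970), all SD with n = 4. Then came Sstr5 (3.53 ± 1.15), Chrm3 (2.33 ± 0.358), Gpr119 (0.0822 ± 0.0431) and Gcgr (0.0417 ± 0.0304). Of neighbours in this order, Sstr5 with Chrm3 and Gpr119 with Gcgr had overlapping ranges. In Klf4-transfected cells Sstr5 reached 6.58 ± 1.39 and Gcgr 0.175 ± 0.0297, above Gpr119 at 0.0567, and no neighbours overlapped. With the longest transcript as the length, Gipr (up to 28.2) and Adra2a (down to 28.1) did overlap there. Control Chrm3 was then at 3.36, beside Sstr5 at 3.53. In control cells, 98.3% of tested genes had a lower level per kilobase than Glp1r and 3.87% a lower level than Gcgr. Of the summed signal of the 10 receptors per kilobase, Glp1r made up 42.3% in control and 41.8% in Klf4-transfected cells, and Sstr5 1.36% ± 0.423 and 2.47% ± 0.392 (SD, n = 4).

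**Figure D3:**
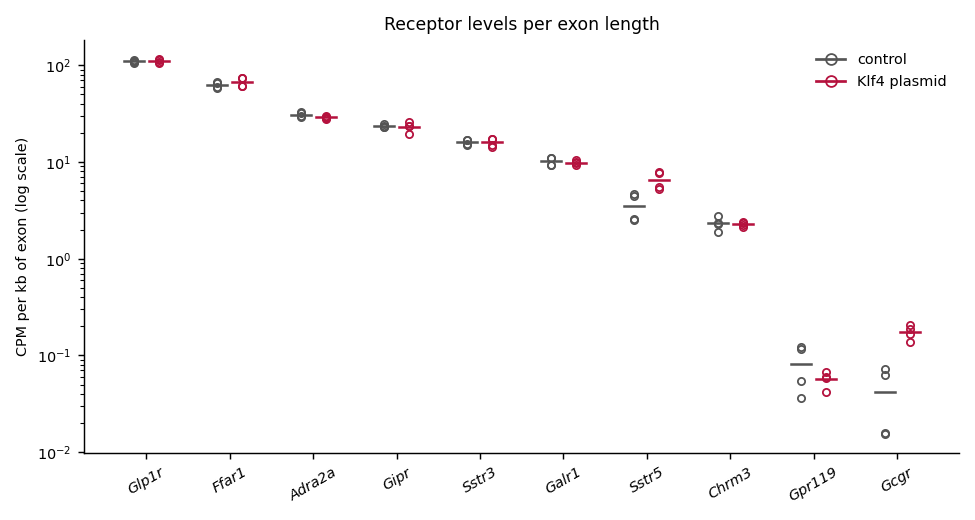
Level of each receptor as CPM per kilobase of exon on a log axis, with open points for single libraries of the control and Klf4-transfected groups and bars for the group means. Glp1r is at the top at about 109.4 in control and Gcgr at the bottom at 0.0417 in control, moving to 0.175.

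For the 3 receptors with the largest called changes, the genes with the closest profile over the 8 libraries were found by the root mean square difference of centred log2 CPM. For Gcgr, over 12870 genes, they were Usp43 (0.245), Itga7 (0.271) and Dsp (0.302). At 2 to 9 counts per control library, the Gcgr profile is limited by counting error and flattened by the prior count of 2. These genes averaged 1.05, 2.46 and 5.73 CPM in control, beside 0.109 for Gcgr. For Sstr5, over 12869 genes, they were Ppl (0.0889), Chl1 (0.127) and Col1a1 (0.136), the last also one of the fibroblast markers. For Ffar1 they were Isl1 (0.0314), Trabd (0.0363) and Xbp1 (0.0369). The exons of Usp43, Itga7, Dsp and Trabd overlap another gene. Trabd was called higher at 0.10 (edgeR adjusted p = 0.0104) and called lower with the offset for GC content and length, at -0.14 (edgeR adjusted p = 0.000254). Ppl itself rose from 46.7 to 80.5 CPM and Dsp from 5.73 to 25.4 CPM, by 0.81 and 2.18 on the log2 scale.

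Genes around the receptors were counted in 12 lists of 157 genes, of which 133 were tested and 69 called (51.9%), 40 higher and 29 lower, with a median log2 fold change of 0.02. Over all tested genes 36.6% were called, 21.1% higher and 15.5% lower, with a median of -0.01, and these are the values to set beside each list. Counts in single lists are described, with no test of a list. In the lists, 43 of the 157 genes share exonic bases with another gene, and where the counting strand is not given such counts are uncertain. This sharing is named below for some genes only. Ramp2 (1103 bases with Vps25), Gnal (852 with Mppe1), Pde3a (741 with Gm28523) and Gna12 (456 with Amz1) are among those not marked below. Chrm1, Plcb2 and Kcnj5 passed the filter only through the Klf4-transfected libraries, and Ppargc1a reached its minimum in all control but not all Klf4-transfected libraries. Without these 4 genes, 66 of 129 (51.2%) were called, 37 higher and 29 lower, with a median of 0.02.

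Of 25 other receptors of the same families, 13 were tested, 5 rose and 0 fell (median 0.15, or 4 of 12 and 0.12 without Chrm1), and Sstr4 was at 0 in all libraries. Chrm1, a Gq-coupled muscarinic receptor, went from 0, 0, 0 and 4 counts to 56, 39, 53 and 75, a ratio of 53.3 (exact 95% interval 20.5 to 197), and its exons overlap Gm22820. Ffar4, a long-chain fatty acid receptor, rose from 1.88 ± 0.202 to 3.92 ± 0.591 CPM (log2 fold change 1.06, edgeR adjusted p = 1.57e-06). Of 23 other islet receptors, 19 were tested, 4 rose and 4 fell (median 0.04), and Drd2 was at 0 throughout. Adora2a, a Gs-coupled adenosine receptor, rose from 5.88 ± 1.14 to 15.4 ± 1.34 CPM (1.4, edgeR adjusted p = 5.11e-11), and Cnr1, the Gi-coupled cannabinoid receptor, from 9.03 to 14.7 CPM (0.70). Lpar2 fell from 13.3 to 10.9 CPM (-0.28) and Htr1d from 13.9 to 12.2 CPM (-0.19). Htr1d was called in neither batch alone (edgeR adjusted p = 0.0618 and 0.192) and Lpar2 not in batch 1 alone (edgeR adjusted p = 0.113).

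Of 11 ligands and processing genes, 6 were tested and 2 rose (median 0.06). Ramp3, which encodes a receptor-modifying membrane protein, rose from 1.07 ± 0.367 to 2.15 ± 0.115 CPM (1.04, edgeR adjusted p = 9.29e-05), and Ramp2 by 0.35, a call lost with the offset for GC content and length (edgeR adjusted p = 0.0921) and without the batch term (edgeR adjusted p = 0.0639). Gcg, the glucagon gene, had a log2 fold change of -0.06 (edgeR adjusted p = 0.379), and Sst, encoding somatostatin, was below the filter.

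Among 12 G protein alpha subunits, 3 rose and 2 fell (median 0.02). Gnal, the olfactory Gs-type subunit, rose by 0.71 (edgeR adjusted p = 0.00891) but lost its call without control replicate 3 (0.49, edgeR adjusted p = 0.0562) and without Klf4 replicate 4 (0.56, edgeR adjusted p = 0.0565). Gna13 rose by 0.29, and Gna12 fell by 0.17. Gnao1, an inhibitory-class subunit, fell from 588 ± 8.63 to 553 ± 13.0 CPM (-0.09, edgeR adjusted p = 0.00811), a call lost with factors from abundant genes (edgeR adjusted p = 0.0992), without the batch term (edgeR adjusted p = 0.0738) and in batch 1 alone (edgeR adjusted p = 0.154). Gnal was also not called in batch 1 alone (0.36, edgeR adjusted p = 0.336).

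Of 10 adenylyl cyclases, which make cyclic AMP, 9 were tested, 2 rose and 2 fell (median 0.18). Adcy3 rose from 1.51 ± 0.288 to 13.8 ± 3.17 CPM (3.17, edgeR adjusted p = 8.21e-15), and its exons overlap Cenpo. Adcy5 rose from 2.13 ± 0.480 to 5.77 ± 1.74 CPM (1.42, edgeR adjusted p = 1.02e-09). Adcy6, the more abundant at 505 CPM in control and 486 CPM with Klf4, had a log2 fold change of -0.06 (edgeR adjusted p = 0.115). Adcy7 fell by 0.18, a call lost without the batch term (edgeR adjusted p = 0.0981) and in batch 1 alone (edgeR adjusted p = 0.0628). Adcy9 fell by 0.12, a call lost without control replicate 3 (-0.10, edgeR adjusted p = 0.0657), without the batch term (edgeR adjusted p = 0.0776), with factors from abundant genes (edgeR adjusted p = 0.0957) and in batch 1 alone (-0.07, edgeR adjusted p = 0.392).

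Of 15 phosphodiesterases, which break cyclic nucleotides down, 13 were tested, and 5 rose and 6 fell (median -0.08). Pde3a rose from 7.57 ± 0.535 to 17.1 ± 1.2 CPM (1.17, edgeR adjusted p = 4.51e-12) and Pde4c by 0.76, while Pde4d fell by 0.27 and Pde4b by 0.22. Of 13 cyclic AMP effectors, 2 rose and 6 fell (median -0.11). Rapgef3, which encodes the exchange factor Epac1, rose from 2.14 ± 0.566 to 10.7 ± 1.6 CPM (2.32, edgeR adjusted p = 4.41e-12), with exons that overlap Rapgef3os2, and Prkar2b rose by 0.15, a call lost without the batch term (edgeR adjusted p = 0.160) and in batch 1 alone (edgeR adjusted p = 0.142). Prkacb, a catalytic subunit of protein kinase A, fell from 165 ± 8.92 to 140 ± 6.47 CPM (-0.24, edgeR adjusted p = 1.24e-06), and Akap1 fell by 0.21. Of 8 CREB factors and coactivators 3 fell and 0 rose (median -0.08), with Atf1 at -0.26 and Crebbp at -0.19, the latter not called in batch 2 alone (-0.11, edgeR adjusted p = 0.0651). With the offset for GC content and length 6 of the 8 fell (median -0.20), and with factors from abundant genes 2. Over all 18266 tested genes, 5206 were called lower with the offset (median -0.05) and 1638 with factors from abundant genes (median 0.02).

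Of 10 genes known to respond to cyclic AMP, 5 rose and 1 fell (median 0.13, or 0.11 without Ppargc1a). With the offset for GC content and length 0 rose and 3 fell, beside 3226 and 5206 of all 18266 tested genes. Nr4a1 had a log2 fold change of 0.24 (edgeR adjusted p = 0.0189) and lost its call in 8 of 21 alternatives, 4 of which left out a library: control replicate 2 (0.16, edgeR adjusted p = 0.0718), control replicate 4 (0.14, edgeR adjusted p = 0.102), Klf4 replicate 2 (0.19, edgeR adjusted p = 0.0807) and Klf4 replicate 4 (0.23, edgeR adjusted p = 0.067). Nr4a3 was at 0.20 (edgeR adjusted p = 0.0442) and lost its call in 16 of 21, the replicate block included (edgeR adjusted p = 0.0598). Per1 fell by 0.14, a call lost without the batch term (edgeR adjusted p = 0.119) and in batch 1 alone (edgeR adjusted p = 0.0537).

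In the phospholipase C arm, downstream of Ffar1 and Chrm3, 5 of 12 genes rose and 2 fell (median 0.07), and without Plcb2 4 of 11 rose and 2 fell (median 0.02). Itpr3, an inositol trisphosphate receptor of the endoplasmic reticulum, rose from 20.6 ± 2.24 to 136 ± 16.9 CPM (2.72, edgeR adjusted p = 1.59e-18), and its exons overlap Itpr3os. Prkcd, protein kinase C delta, rose from 4.44 ± 0.357 to 18.0 ± 2.06 CPM (2.01, edgeR adjusted p = 3.88e-15). Itpr1 fell by 0.29. Prkce fell by 0.11, but was called in neither batch alone (edgeR adjusted p = 0.0971 and 0.0538) nor with factors from abundant genes (-0.08, edgeR adjusted p = 0.0546). Of 14 desensitisation genes, which include arrestins and RGS proteins, 5 rose and 2 fell (median 0.06), with Rgs17 at 0.29, Arrb1 at 0.28, Arrb2 at -0.15 and Rgs9 at -0.10. In batch 1 alone neither Arrb1 (0.15, edgeR adjusted p = 0.0963) nor Arrb2 (-0.06, edgeR adjusted p = 0.344) was called. Rgs9 lost its call without the batch term (edgeR adjusted p = 0.227), with factors from abundant genes (-0.06, edgeR adjusted p = 0.104) and in batch 2 alone (edgeR adjusted p = 0.141). Of the 4 G-protein-gated potassium channel genes, 2 rose and 1 fell (median 0.81), and without Kcnj5 1 of 3 rose and 1 fell (median -0.06). Kcnj5 went from 4, 3, 1 and 0 counts to 25, 16, 28 and 35, a ratio of 12.4 (exact 95% interval 6.08 to 29.5). Kcnj3 rose from 0.830 to 2.67 CPM (1.68), with exons that overlap Gm26794, and Kcnj9 fell from 10.6 to 7.64 CPM (-0.47).

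**Figure D4:**
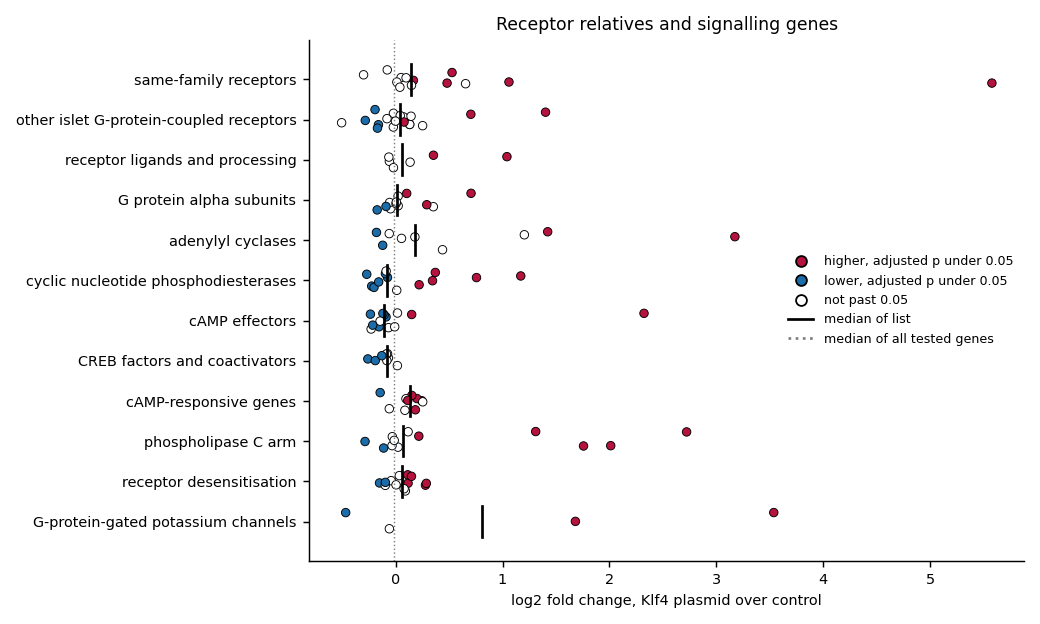
Log2 fold change of each tested gene in the 12 signalling lists, 1 row per list, with called genes filled, the list median as a bar and the median of all tested genes as a dotted line. The largest values, Chrm1 at 5.58, Kcnj5 at 3.54 and Adcy3 at 3.17, belong to genes of low level in control, and most other points lie near 0.

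The split of called genes moved with the scaling. For the 9 tested receptors it was 3 higher and 1 lower with TMM, 3 and 0 with factors from abundant genes, and 2 and 3 with the offset for GC content and length. For the 12 lists it was 40 and 29, 44 and 19, and 26 and 47. In single lists, given as higher and lower with TMM, with factors from abundant genes and with the offset, the split was 5 and 0, 5 and 0, and 4 and 3 for receptors of the same families. For other islet receptors it was 4 and 4, 5 and 4, and 2 and 8. For G protein alpha subunits it was 3 and 2, 4 and 1, and 3 and 7. For adenylyl cyclases it was 2 and 2, 2 and 1, and 2 and 3. For phosphodiesterases it was 5 and 6, 5 and 4, and 4 and 4. For cyclic AMP effectors it was 2 and 6, 2 and 3, and 2 and 6. For the phospholipase C arm it was 5 and 2, 5 and 1, and 4 and 2. For desensitisation genes it was 5 and 2, 6 and 1, and 2 and 4. Over all genes 57.69%, 72.81% and 38.26% of calls were higher. Of all 18266 tested genes, 3856 were called higher and 2828 lower with TMM (median log2 fold change -0.01). With factors from abundant genes these were 4387 and 1638 (median 0.02), and with the offset 3226 and 5206 (median -0.05). The counts of receptors and list genes under each scaling are to be set beside these.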

How the data were processed

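Whole-number counts per gene were used as the authors deposited them, 1 column for each of 8 libraries, and per the submitters' processing notes reads were processed with FastQC, STAR, featureCounts and edgeR against mm10. The strand setting and annotation are not given in the sources used here. All 55536 gene IDs matched GENCODE M21 (GRCm38), which gave coordinates and exon lengths. Counts were fitted in edgeR 4.0.16 (R 4.3.3) with filterByExpr (minimum count 10), TMM and terms for batch and plasmid, and p-values were adjusted by Benjamini-Hochberg over 18266 genes. The procedure was tested on simulated data. Alternatives used DESeq2 1.42.0, limma 3.58.1, other factors, filters and designs. The GC and length offset (loess span 0.3), its use with the replicate block, and the filter by design matrix were chosen after seeing the data. Receptors and lists were chosen with earlier results of these data known. Named were Klf4, the 10 receptors, up to 2 highest and 2 lowest called genes per list, and 3 closest profiles (prior count 2, average log2 CPM at least 1) for each of 3 receptors. Adcy6, Gcg, Sst, Plcb2 and Ppargc1a fall outside that rule, as do Sstr4 and Drd2, and were named after their values were seen. For the replicate block, control and Klf4-transfected libraries were paired by the replicate number in their titles, which do not say that equal numbers are paired cultures. Their deviations from the group mean correlated at 0.459 to 0.614 for the same number, and at 0.459 to 0.575 within a batch across numbers. Across batches the values were -0.633 to -0.450. Library totals and intervals limit precision for genes of few counts. In the main fit, p-values set the difference between the groups against the spread of these libraries within batches. Whether that is a spread between independent cultures is not known beyond the description of the replicates as biological.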

Additional observations from a re-analysis of the deposited data

Results flagged for a closer look

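Of 102 checks of single libraries within a group of 4, 5 had 1 library far from the other 3. Chance alone gives this in about 5% of groups. Control replicate 4 held 0.0828 CPM of Chrm1, and the others 0. Klf4-transfected replicate 3 held 16.7 CPM of Cnr1, beside 13.8 to 14.2 in the others. Control replicate 1 held 14.6 CPM of Htr1d, beside 13.6 to 13.7. Klf4-transfected replicate 2 held 110.7 CPM of Crebbp, beside 105 to 105.3, and 66.1 CPM of Nr4a1, beside 55.9 to 57.1. None of these was a receptor among the 10.

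The effect of the plasmid differed between batches in the interaction test for 3 named genes, and was larger in batch 2 for each. The log2 difference was 0.37 for Klf4 (edgeR adjusted p = 0.0057), 0.98 for Adcy3 (edgeR adjusted p = 0.0137) and 0.57 for Itpr3 (edgeR adjusted p = 1.34e-05). Adcy3 had log2 fold changes of 2.68 in batch 1 and 3.68 in batch 2, and Itpr3 of 2.43 and 3.02.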

How the results depend on the processing

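Sstr5 kept its direction and its call in all 21 alternatives, at log2 fold changes of 0.72 to 1.1. Gcgr lay between 1.46 and 3.32 in the 20 that gave a value (none with a minimum of 1 CPM), and since it passed the main filter only through its Klf4-transfected libraries its calls are no sign of stability. Ffar1 kept its direction but lost its call in 5 of 21, and Adra2a in 3 of 21. Without the batch term 4116 genes, 2 of the receptors and 40 list genes were called, in place of 6684, 4 and 69, and in batch 1 alone 42 list genes. Leaving out single libraries gave 5889 to 7074 genes, 3 to 4 receptors and 60 to 69 list genes.

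Values near 0 changed sign. With factors from abundant genes Sstr3 was at 0.016 and Chrm3 at 0.0037. In batch 1 alone Gipr was at 0.033, Sstr3 at 0.024 and Galr1 at 0.019, and in batch 2 alone Glp1r was at -0.013 and Chrm3 at 0.052. Leaving out single libraries put Glp1r between -0.012 and 0.027, Gipr between -0.10 and 0.0089 and Chrm3 between -0.11 and 0.027. The offset for GC content and exon length put Glp1r at -0.056, and together with the replicate block at -0.055. Trabd, called higher at 0.10, was called lower with the offset, at -0.14, and with the block as well, at -0.14. The cause of these changes was not tested.

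With a replicate block replacing the batch term, 6284 genes, 4 receptors and 64 list genes were called. Of the named genes, only Nr4a3 lost its call under the block. Gcgr and Gpr119, at 2 to 28 counts per library, are limited by depth.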
